A study of Rattus norvegicus with 10 samples.

Results

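The expression of 5 enzymes of cholesterol synthesis was followed in cultures of rat microglia, the macrophages that live in brain tissue, with and without IFN-gamma (interferon gamma), a signal by which lymphocytes activate macrophages. They were Idi1, Fdps, Fdft1, Sqle and Cyp51, chosen by gene symbol as every probe set whose only symbol in the platform annotation is one of these names. They are 5 of the 4736 genes so named, and have 15 of the 8799 probe sets on the array, of which 8740 were tested. Idi1 had 2 of them, Fdps 3, Fdft1 4, Sqle 1 and Cyp51 5. Hmgcs1, the enzyme that makes HMG-CoA ahead of mevalonate, is not analysed here.

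The cells came from the brains of newborn rats, with a flask for each brain, and stayed for 15 days in a medium that held 15% fetal calf serum. The IFN-gamma group was given 100 U/ml IFN-gamma in fresh medium for 16 hours and the control group fresh medium alone. There were 3 IFN-gamma cultures, of which culture 1 was measured on 3 arrays (1a, 1b and 1c), and 5 independent control cultures, numbered 1, 2, 3, 5 and 6. The labels give neither the strain nor the sex of the animals, and the cells of both groups were grown in serum. In RNA from whole cultures, fewer cells of a type and less RNA per cell cannot be told apart.

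Cells build cholesterol from acetyl-CoA by way of mevalonate and isoprenoids, then close the linear hydrocarbon squalene into a ring and trim it into cholesterol. The genes of the pathway are controlled by the transcription factor SREBP2, which is released when membrane sterol falls and held back when sterol, for example from serum lipoproteins, is plentiful. In mouse macrophages interferon is known to lower the expression of this pathway.

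The promoters of Idi1, Fdps and Cyp51 are shown because sterol control and interferon signalling both act on genes through short boxes in such windows. Each is the 250 bases before the gene's start on the gene's strand, from RefSeq with build GRCr8, and Sqle and Fdft1 had no entry in the table used. Capitals mark CCAAT (the NF-Y box, which works beside SREBP) or GGGCGG (the Sp1 box), on either strand, so that a box on the other strand reads ATTGG or CCGCCC.
Idi1, chr17:66547525-66547774, minus strand: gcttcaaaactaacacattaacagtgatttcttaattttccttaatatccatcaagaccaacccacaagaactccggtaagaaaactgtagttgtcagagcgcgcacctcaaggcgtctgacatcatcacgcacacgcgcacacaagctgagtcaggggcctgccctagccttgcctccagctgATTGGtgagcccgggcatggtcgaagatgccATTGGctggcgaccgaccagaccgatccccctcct
Fdps, chr2:176804817-176805066, minus strand: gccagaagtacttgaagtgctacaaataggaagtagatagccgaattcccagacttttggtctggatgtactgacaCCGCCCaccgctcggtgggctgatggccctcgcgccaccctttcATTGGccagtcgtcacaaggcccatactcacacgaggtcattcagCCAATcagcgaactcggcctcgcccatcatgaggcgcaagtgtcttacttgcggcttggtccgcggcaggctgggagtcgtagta
Cyp51, chr4:30991443-30991692, plus strand: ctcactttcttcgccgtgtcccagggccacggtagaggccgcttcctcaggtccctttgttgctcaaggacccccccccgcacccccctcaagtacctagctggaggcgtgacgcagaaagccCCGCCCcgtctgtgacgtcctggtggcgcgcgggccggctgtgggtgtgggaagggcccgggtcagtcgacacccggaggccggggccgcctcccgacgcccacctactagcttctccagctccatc

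Idi1 held CCAAT at 2 places and Fdps at 2, where 34.02% of 33469 promoters of the same length held at least 1. Fdps and Cyp51 held GGGCGG once each, against 30.47% of all promoters. None of these windows held TCACNCCAC, a sterol regulatory element (0.97% of all), or the interferon-stimulated response element, GAAA repeated after any 2 bases (3.41%). No matches overlap in these windows. Other forms of the sterol regulatory element were not searched for, so the windows may hold a form that TCACNCCAC does not match. A match is a run of letters and not a shown binding site.

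Levels are given below as normalised log2(signal + 16) per culture, a scale on which a signal of 0 is 4. The median level of all probe sets tested was 4.96. Probe sets bind with different strength, so a level is compared between groups and not between genes. The pseudocount of 16 shrinks the fold change of a dim probe set.

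No probe set of the 5 genes passed the test (adjusted p under 0.05), and their signals were low in both groups. Of the 150 deposited member signals 103 (68.7%) were under 16, against 51.7% of all signals, and they ran from 0.9 to 77.6. The mean level exceeded 4.96 in 6 of the 15. By limma 0 of 15 were called higher or lower, where 1.53% of all probe sets were called. At an unadjusted p under 0.05 there was 1 of 15, against 10.5% of all probe sets. The log2 fold changes ran from -0.73 for Sqle to 0.59 for 1 probe set of Fdft1, with a median of 0.08 against -0.02 over all probe sets. There were 8 above 0 and 7 below.

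**Figure D1:**
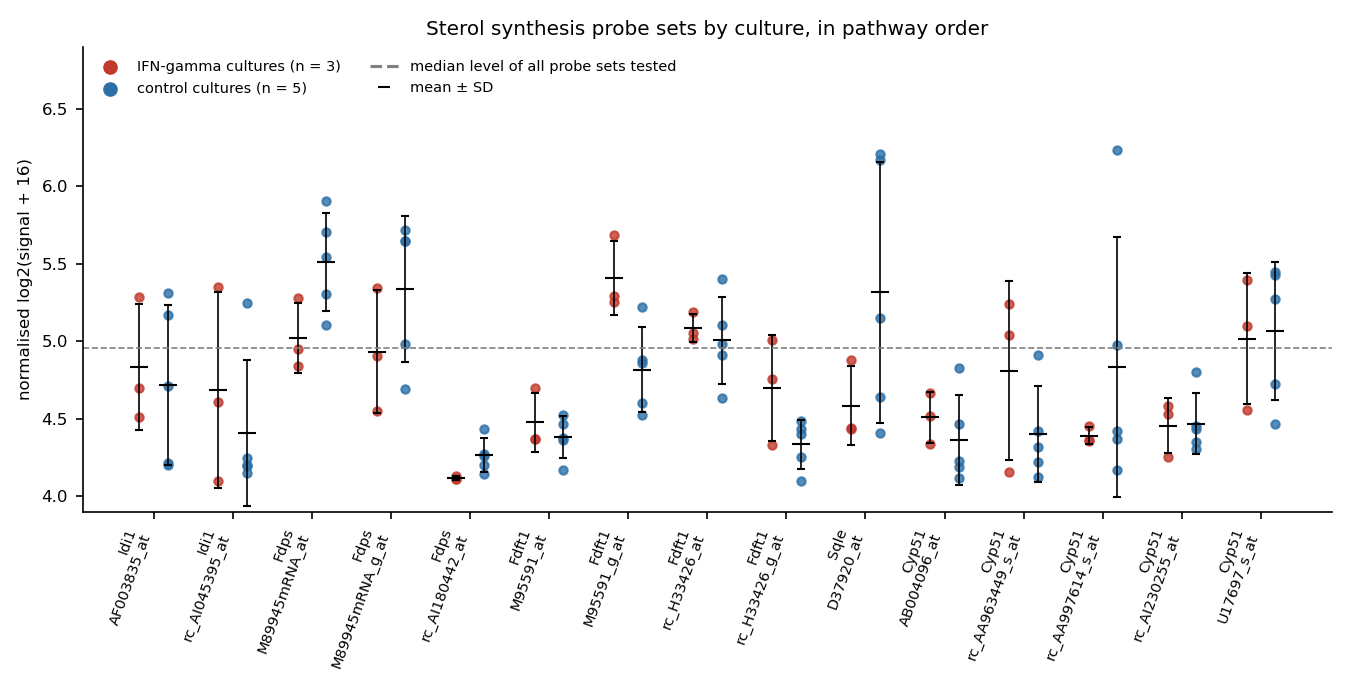
Normalised log2(signal + 16) of the 15 probe sets in pathway order, with IFN-gamma cultures (n = 3) left of control cultures (n = 5), a point per culture and the mean ± SD. The dashed line is the median level of all probe sets tested, 4.96, and most points lie near or under it.

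As a check of the labels, all 12 probe sets of the interferon response genes Irf1, Cd74, Gbp2, Psmb9, Tap1 and Cxcl10 were higher, with a median log2 fold change of 3.24, and in each of them the groups did not overlap. The cultures carried the microglial marker Aif1. Its 2 brighter probe sets had 7.82 to 8.42 in the IFN-gamma cultures and 6.98 to 8.47 in the controls. Its dimmest probe set had a mean of 5.34 in both groups. The brightest probe sets of Cd14 and C1qb had means of 8.28 and 9.92 with IFN-gamma and 8.63 and 8.77 in the controls. Nearer the median level of 4.96, Csf1r, Cx3cr1, Ptprc and Itgam had means of 4.88, 4.91, 5.86 and 5.77 with IFN-gamma. In the controls these genes had 4.73, 5.19, 5.60 and 4.98, in the same order. Summed over the brightest probe set of each gene, the microglia markers, with 7 of 9 listed genes measured, reached a normalised signal of 1453 to 1783 in the IFN-gamma cultures and 999 to 1235 in the controls, with 2 of 13 probe sets called higher, both of the complement gene C1qb. Without C1qb, as chosen after its values were seen, the sums were 686 to 710 in the IFN-gamma cultures and 573 to 864 in the controls. The astrocyte markers summed to 246 to 307 in the IFN-gamma cultures and 556 to 914 in the controls. Glul, the glutamine synthetase gene, was lower by all of its probe sets, with log2 fold changes of -1.66, -0.998, -0.77 and -0.59. Only M91652complete_seq_g_at, at -1.66, was called (limma adjusted p = 0.003), and no other of the 18 astrocyte probe sets was. Without Glul, as chosen after its values were seen, the sums were 103 to 132 with IFN-gamma and 102 to 175 in the controls. The sums with IFN-gamma and in the controls were 109 to 128 and 124 to 243 for oligodendrocyte markers, 45.4 to 103 and 82.8 to 136 for neuron markers, and 220 to 253 and 219 to 361 for fibroblast and vessel markers, where 1 of 19 probe sets (of Col1a1) was called lower. Of the neuron markers the synaptic gene Snap25 had 5.76 ± 0.53 (SD, n = 3) with IFN-gamma and 5.96 ± 0.38 (SD, n = 5) in the controls. Another synaptic gene, Syt1, lay near the floor at 4.22 ± 0.13 (SD, n = 3) with IFN-gamma and 4.19 ± 0.10 (SD, n = 5) in the controls. The part of these markers in the results was not tested. The array medians of the deposited signal ran from 7.4 to 23.7. The dimmest array was control culture 3, which gave the lowest deposited control signal in 9 of the 15 probe sets, with a tie in rc_AA963449_s_at. After normalisation it was the lowest control in 4 of the 15.

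Idi1, which turns isopentenyl diphosphate into its reactive isomer dimethylallyl diphosphate, was measured by a pair of probe sets. The brighter, AF003835_at, had deposited signals of 14.4, 2.1 and 8.4 on arrays 1a, 1b and 1c, and 7 and 31.1 in IFN-gamma cultures 2 and 3. The control cultures had 30.1, 14.8, 4.9, 3 and 2.9 (cultures 1, 2, 3, 5 and 6). Both groups thus held a culture near 30 and cultures under 10, and they overlapped over most of their range. The normalised levels were 4.83 ± 0.40 (SD, n = 3) with IFN-gamma and 4.72 ± 0.52 (SD, n = 5) in the controls, a log2 fold change of 0.11 (95% interval -0.59 to 0.82, limma adjusted p = 0.965). The other probe set, rc_AI045395_at, was under 4 in most arrays but reached 23.4 on array 1c, 26.5 in IFN-gamma culture 2 and 16.2 in control culture 2. Arrays 1a and 1b of the same culture as 1c gave 1.3 and 1.7. Its log2 fold change was 0.28 (95% interval -0.49 to 1.04, limma adjusted p = 0.884).

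Fdps, farnesyl diphosphate synthase, joins the isoprene units into the farnesyl chain that feeds both sterols and the lipid anchors of small GTPases. Its probe set M89945mRNA_at had signals of 8.5, 29.7 and 9.8 on arrays 1a, 1b and 1c, and 24.4 and 16.9 in IFN-gamma cultures 2 and 3. In the controls it had 39.1, 25.5, 8.7, 27.6 and 53.3. After normalisation IFN-gamma cultures 1, 2 and 3 had 4.95, 5.28 and 4.84, and control cultures 1, 2, 3, 5 and 6 had 5.54, 5.71, 5.10, 5.30 and 5.90. The groups overlapped in 1 place, where IFN-gamma culture 2 lay above control culture 3, the dimmest array. The log2 fold change was -0.49 ± 0.22 SE (95% interval -0.98 to 0.00, limma adjusted p = 0.479). Without control culture 3 it was -0.59, still with no call (limma adjusted p = 0.283).

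The other probe sets of Fdps gave values of the same sign. M89945mRNA_g_at, which is named for the same source sequence, had 4.93 ± 0.40 (SD, n = 3) with IFN-gamma and 5.34 ± 0.47 (SD, n = 5) in the controls, a log2 fold change of -0.40 (limma adjusted p = 0.766). The third, rc_AI180442_at, stayed at the floor, with signals of 1.1 to 1.6 on the IFN-gamma arrays and 1.9 to 6.8 in the controls. Its groups did not overlap, but its difference of -0.14 was small (limma adjusted p = 0.848).

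Fdft1, squalene synthase, joins a pair of farnesyl chains into squalene, the first step given over to sterols alone. Its probe set M95591_g_at had the smallest p of the 15. Its signals were 7.8, 20.6 and 41.9 on arrays 1a, 1b and 1c, 23.9 and 49.8 in IFN-gamma cultures 2 and 3, and 27.2, 6.2, 6.3, 8.2 and 15.4 in the controls. Normalised, the 3 IFN-gamma cultures (5.29, 5.25 and 5.68) lay just above the 5 controls, of which culture 1 was the highest at 5.22. The log2 fold change was 0.59 ± 0.21 SE (95% interval 0.13 to 1.06, limma adjusted p = 0.302), so it was not called.

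For IFN-gamma culture 1, the separation of that probe set from the controls rested on array 1c. The normalised levels of the 3 arrays of IFN-gamma culture 1 were 4.74, 4.90 and 6.24, and arrays 1a and 1b lay within the control range of 4.52 to 5.22. Without IFN-gamma culture 1 the log2 fold change was 0.65 (limma adjusted p = 0.452). With array 1a alone for that culture the log2 fold change was 0.41 (limma adjusted p = 0.665), and with array 1c alone it was 0.91 (limma adjusted p = 0.181). Together with rc_AI180442_at of Fdps it made 2 of 15 probe sets whose groups did not overlap, 1 above and 1 below the controls, where 7.68% of all probe sets did not overlap.

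The other probe sets of Fdft1 did not pass the test. The log2 fold change was 0.10 for M95591_at and 0.08 for rc_H33426_at, at 5.08 ± 0.09 (SD, n = 3) with IFN-gamma and 5.01 ± 0.28 (SD, n = 5) in the controls. It was 0.36 for rc_H33426_g_at (limma adjusted p = 0.584). That probe set had signals of 15.9, 20.7 and 1.4 on arrays 1a, 1b and 1c. The same culture thus gave values within and far above the control range of 1.3 to 6.8.

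Sqle, squalene epoxidase, adds the oxygen that lets squalene close into a ring and is a rate-limiting enzyme of the pathway. It had the widest control spread of the 15 probe sets. Its signals were 2.5, 14.1 and 3.4 on arrays 1a, 1b and 1c, and 5.7 and 17.8 in IFN-gamma cultures 2 and 3. The controls had 77.6 in culture 1 and 63.9 in culture 5, the highest signals of the gene, then 23.5 in culture 6, 6.7 in culture 2 and 2.9 in culture 3. Normalised, the IFN-gamma cultures had 4.44, 4.43 and 4.88, while control cultures 1, 2, 3, 5 and 6 had 6.21, 4.64, 4.41, 6.17 and 5.15. All 3 IFN-gamma cultures were therefore at the low end, within a control range that ran from the same low level to a far higher one.

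The means of Sqle were 4.58 ± 0.26 (SD, n = 3) with IFN-gamma and 5.31 ± 0.84 (SD, n = 5) in the controls. The log2 fold change was -0.73 ± 0.43 SE (95% interval -1.71 to 0.25, limma adjusted p = 0.657), the lowest of the 15 and not called. It was -0.51 without control culture 1, -0.52 without control culture 5 and -0.96 without control culture 3. With a pseudocount of 1, which shrinks dim values less, it was -1.33 (limma adjusted p = 0.688). A change of over 3-fold downward thus lies inside the interval, since its lower bound is a fold of 0.306.

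Cyp51, lanosterol 14-alpha demethylase, removes the first of the methyl groups that set lanosterol apart from cholesterol. Its brightest probe set, U17697_s_at, had signals of 3.8, 4.7 and 11.2 on arrays 1a, 1b and 1c, and 28.1 and 24.7 in IFN-gamma cultures 2 and 3, against 34.9, 19.7, 3.3, 12.1 and 27.4 in the controls. Each group held bright and dim cultures, and the groups overlapped over most of their range. The normalised means were 5.02 ± 0.42 (SD, n = 3) with IFN-gamma and 5.07 ± 0.45 (SD, n = 5) in the controls, a log2 fold change of -0.05 (95% interval -0.71 to 0.60, limma adjusted p = 0.986).

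The 4 dimmer probe sets of Cyp51 had log2 fold changes of 0.41 (rc_AA963449_s_at), 0.14 (AB004096_at), -0.01 (rc_AI230255_at) and -0.44 (rc_AA997614_s_at), with limma adjusted p between 0.728 and 0.996. For rc_AA997614_s_at control culture 3 had 6.23, against 4.17 to 4.98 in the other controls, and without it the value was -0.093. That array was the dimmest of the series, yet it gave 25.8, the highest deposited signal of that probe set.

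**Figure D2:**
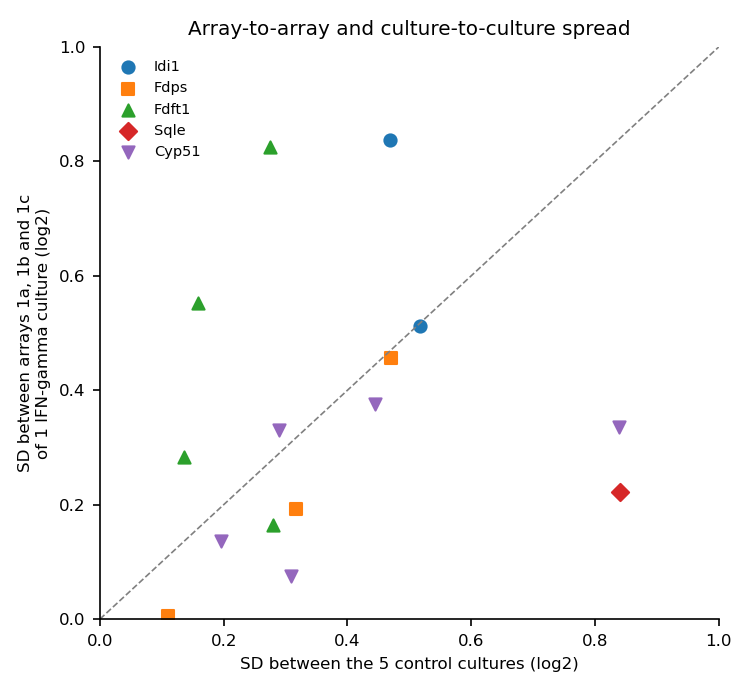
Each point is 1 of the 15 probe sets. The x axis is the SD between the 5 control cultures and the y axis the SD between arrays 1a, 1b and 1c of 1 IFN-gamma culture, both on the log2 scale; 5 points lie above the dashed line of equal spread.

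The 3 arrays of IFN-gamma culture 1, labelled technical replicates, show how much of this spread repeated arrays of 1 culture give. The SD between them had a median of 0.33 over the 15 probe sets, close to the 0.31 between the 5 control cultures. It was the larger of both in 5 probe sets, among them 3 of Fdft1 and 1 each of Idi1 and Cyp51. For Sqle it was 0.22 between arrays against 0.84 between control cultures. Among all 5528 probe sets in the level range of the members, the SD between arrays was the larger in 41.9%.

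Of the 15 intervals 9 lay wholly within 2-fold in either direction on this scale. The widest bounds were -1.71 (Sqle) and 1.06 (Fdft1). At signals under the pseudocount even a large change in signal stays within such bounds, so they limit the bright probe sets more than the dim ones.

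The other enzymes of the route were measured for 10 of the 15 genes listed, by 16 probe sets, and 0 of these were called by limma (1 at an unadjusted p under 0.05). Their log2 fold changes had a median of 0.01. Before the isoprenoid stage, the brightest probe sets of the thiolase gene Acat2, the mevalonate kinase gene Mvk and the decarboxylase gene Mvd had -0.32, 0.01 and 0.01. The cyclase gene Lss, which makes lanosterol, had 0.02. After Cyp51, the sterol reductase gene Lbr, the demethylation genes Nsdhl and Hsd17b7, the isomerase gene Ebp and the last-step reductase gene Dhcr7 had 0.28, 0.03, -0.03, 0.04 and 0.14.

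Msmo1, the C4-methyl oxidase that acts a few steps after Cyp51, had the smallest p of these. By rc_AI172293_at the IFN-gamma cultures had 5.46, 5.75 and 5.32, and the control cultures 6.34, 5.77, 5.87, 6.46 and 6.28. The 3 IFN-gamma cultures lay below all 5 controls, by 0.02 at the closest pair. The log2 fold change was -0.64 ± 0.21 SE (limma adjusted p = 0.273). The second probe set of Msmo1 lay near the floor and had -0.05.

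**Figure D3:**
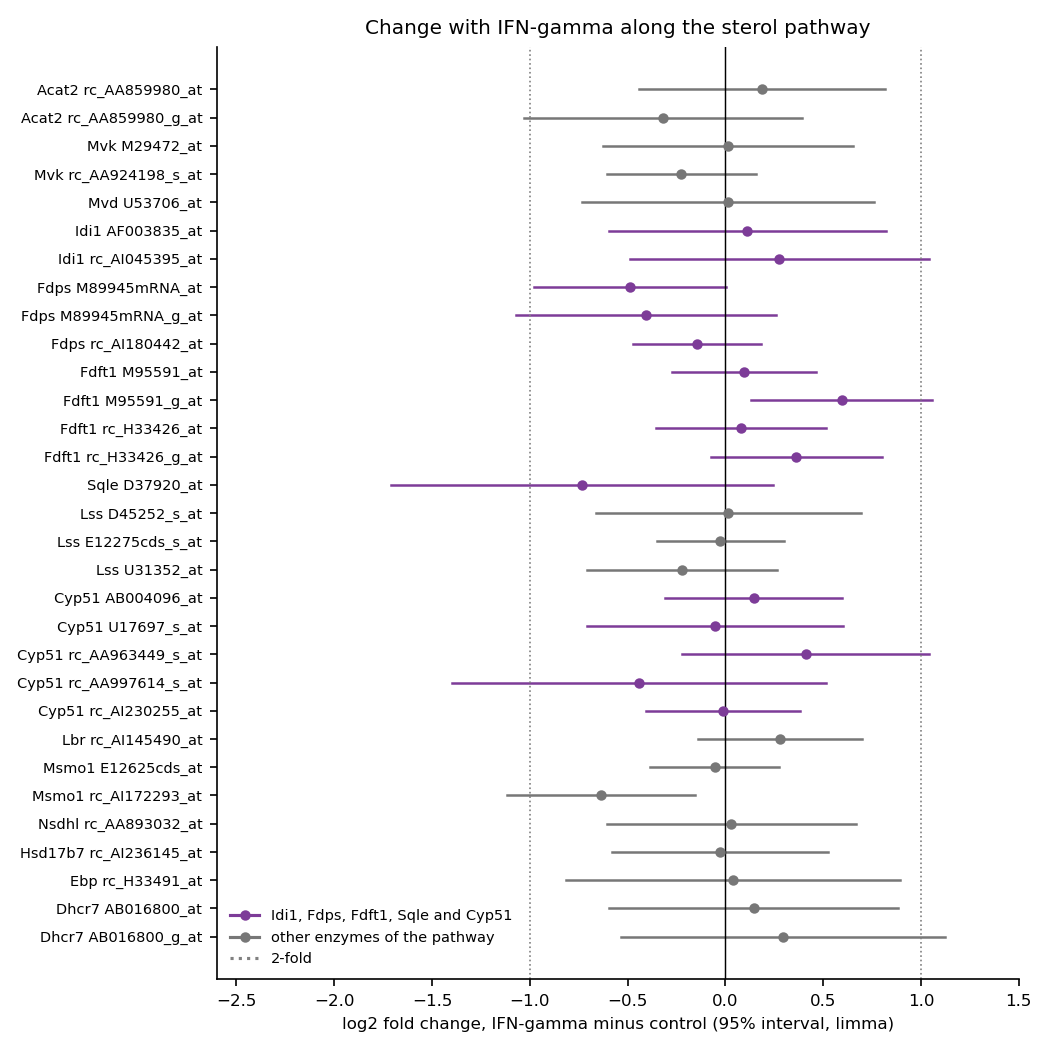
Log2 fold change, IFN-gamma minus control, with its 95% interval from limma, for each probe set of the pathway from acetyl-CoA (top) to cholesterol (bottom). Purple marks Idi1, Fdps, Fdft1, Sqle and Cyp51, grey the other enzymes, and the dotted lines 2-fold; 29 of 31 intervals include 0 and the exceptions are Fdft1 M95591_g_at and Msmo1 rc_AI172293_at.

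Of the genes that sense sterol and control the pathway, 3 of 7 listed were measured, by 4 probe sets, and none of these was called. Srebf2, the gene of SREBP2, was not measured, and neither were Scap, Insig2 and Mbtps1. Insig1, an SREBP target that holds the factor in the endoplasmic reticulum, had -0.21 and -0.22. Srebf1, which drives fatty acid synthesis more than sterol synthesis, had 0.32 (limma adjusted p = 0.848). Mbtps2, the protease that frees SREBP from the membrane, had 5.48 ± 0.12 (SD, n = 3) with IFN-gamma and 4.84 ± 0.55 (SD, n = 5) in the controls, a log2 fold change of 0.64 (limma adjusted p = 0.501). Control culture 1 stood far above the other controls for Mbtps2, and without it the value was 0.89 and was called (limma adjusted p = 0.0368).

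Of the genes that bring sterol into the cell, 3 of 9 listed were measured, and 2 of 7 probe sets were lower. Both belong to Scarb1, the scavenger receptor that binds high-density lipoprotein. AF071495_s_at had 4.78 ± 0.50 (SD, n = 3) with IFN-gamma and 7.08 ± 0.26 (SD, n = 5) in the controls, a log2 fold change of -2.29 (limma adjusted p = 0.0017). D89655_at fell by 1.31 (limma adjusted p = 0.013), which did not pass in 7 of 20 alternatives, including the removal of any single IFN-gamma culture, and the brightest probe set, rc_AA874843_s_at, had -1.48 with no call (limma adjusted p = 0.116). The brightest was called with the filter on low values and with the variance trend (limma adjusted p = 0.0325 and 0.0344). The lipoprotein receptor gene Vldlr had -0.15 and the lysosomal lipase gene Lipa -0.48 by its brightest probe set (limma adjusted p = 0.945 and 0.348). The sign of the Lipa value turned with the scaling, to 0.33 with no scaling and 0.21 with array medians subtracted.

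Sterol export, esterification and oxysterol genes gave 2 lower probe sets of 10, both of Apoe, the lipoprotein that carries sterol between brain cells (-1.04 and -0.74, limma adjusted p = 0.0167 and 0.0492). The call of the second, S76779_s_at, was lost in 17 of 20 alternatives, including every one that left out a culture, and that of the first, X04979_at, in 7. Both were lost with no scaling, with array medians subtracted, with the trimmed mean, with a pseudocount of 1 and without IFN-gamma culture 2 or 3. Cyp27a1, which makes an oxysterol, had 0.81 (limma adjusted p = 0.361), and without control culture 3 it had 1.04 and was called (limma adjusted p = 0.0365). The oxysterol receptor gene Nr1h2 had 0.57 (limma adjusted p = 0.635) and the oxysterol hydroxylase gene Cyp7b1 had -0.46 (limma adjusted p = 0.676). In fatty acid synthesis 0 of 20 probe sets of 7 genes were called. The brightest probe set of Acly, which supplies acetyl-CoA to both routes, had 0.40 (limma adjusted p = 0.497). Me1 had 0.10 by its brightest probe set and -0.39 to 0.50 over all of its probe sets, the highest with limma adjusted p = 0.383. The desaturase gene Scd2 had values from -0.53 to 0.55 over its 6 probe sets. In the branches that leave the pathway for protein prenylation 0 of 7 were called, with Rabggtb at 0.65 (limma adjusted p = 0.338), Fnta at 0.59 and Fntb at -0.59 and -0.15. Among relatives in ketone metabolism 0 of 4 were called, and Bdh1 had 0.92 (limma adjusted p = 0.339) and Acat1 0.21.

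Between the brightest probe sets of the genes, Pearson's r over the 8 cultures ran from -0.59 (Fdps with Fdft1) to 0.61 (Fdps with Cyp51), as a description of points that share array brightness. The mean of the 5 brightest probe sets was 4.79, 4.97 and 5.16 in IFN-gamma cultures 1, 2 and 3, and 5.55, 5.11, 4.71, 4.99 and 5.08 in control cultures 1, 2, 3, 5 and 6. The controls thus spanned all 3 IFN-gamma cultures, with control culture 1 the highest and control culture 3 the lowest. Among 960 other genes with a mean level of at least 6, those most like this mean over the 8 cultures were Rpl36, Lta4h, Atp6ap1, Slc25a4 and Pebp1, with r between 0.91 and 0.93. None of these was called, with limma adjusted p between 0.802 and 0.986. That follows largely from how they were picked, since they track a mean whose groups overlap, so it is not a separate result.

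**Figure D4:**
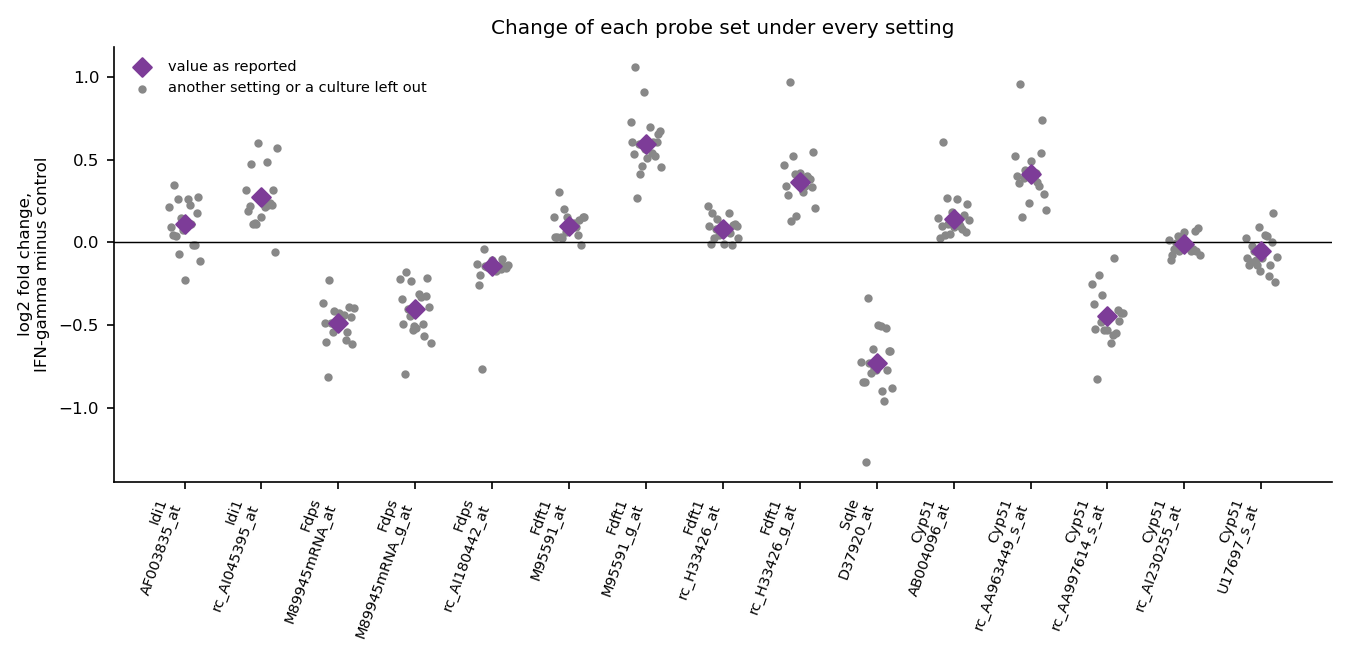
Log2 fold change, IFN-gamma minus control, of each of the 15 probe sets as reported (purple diamonds) and under each other setting or with 1 culture left out (grey points). The points furthest from the diamonds for Sqle, at -1.33, and for Fdft1 M95591_g_at, at 1.06, come from a pseudocount of 1.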

How the data were processed

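Each array has 1 value per probe set in the authors' deposited file, an intensity on a linear scale. MAS5 and GCRMA appear as tools, without versions, per the submitters' processing notes, and the step each was used for is not given here. Of 8799 probe sets 59 array controls were left out of the tests. Gene symbols came from the platform annotation, where 7006 tested probe sets had 1 symbol, 308 several and 1426 none. The Entrez identifiers of all 5 measured genes were found in RefSeq (GRCr8) with the same symbol.

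From the intensities log2(signal + 16) was computed, quantile normalised over 10 arrays, and arrays 1a, 1b and 1c were averaged, so the test compared 3 IFN-gamma with 5 control cultures. limma 3.58.1 in R 4.3.3 (group as the only term, two-sided) gave each p, adjusted by Benjamini-Hochberg over 8740 probe sets with a threshold of 0.05. The fit was also run on simulated data with 200 changed probe sets, whose outcome is not given here. The simulated noise was normally distributed and independent between probe sets, with no floor. That run therefore does not show how large a change in a dim probe set would be found. The number of arrays limits the precision.

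All member probe sets, the measured sterol pathway, uptake and SREBP genes, and from other lists the called genes and those of smallest p are named, and the 5 genes most like the mean of the members. Where a gene has several probe sets, the brightest is meant unless stated. The members, lists and scaling were chosen with earlier results of these data known. Alternatives were 3 scalings, pseudocounts of 1 and 64, a filter on low values, single technical arrays, all arrays with a culture block, the culture number as a replicate block, a variance trend and each culture left out.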

Additional observations from a re-analysis of the deposited data

Results flagged for a closer look

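In 8 of 70 probe sets, 1 control culture stood far from the other 4. The rule flags about 1 in 20 where values are independent and normally distributed. Probe sets share arrays and many lie near the floor, so that rate is only a rough guide here. Among the 5 enzymes this was Idi1 by rc_AI045395_at, with control culture 2 at 5.25 and the other controls up to 4.25. Elsewhere on the route it was Mvk by M29472_at (control culture 3 at 5.56, the others up to 4.47), Lss by D45252_s_at (control culture 3 at 4.39, the others from 5.55) and Ebp (control culture 3 at 4.25, the others from 5.66). The remaining probe sets were Vldlr (control culture 6 at 5.38, the others up to 4.39), Mbtps2 (control culture 1 at 5.81, the others up to 4.69), Psmb9 by D10757_g_at (control culture 1 at 5.52, the others up to 4.42) and Scd2 by S75730_at (control culture 1 at 5.23, the others up to 4.46). Control culture 3, the dimmest array, accounts for 3 of the 8.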

How the results depend on the processing

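No alternative called any of the 15 probe sets. Over 291 values under 20 alternatives the smallest limma adjusted p was 0.14, for Fdft1 by M95591_g_at without control culture 1. The count of probe sets called over the whole table was 134 (81 higher, 53 lower). It was 39 (38 higher, 1 lower) with no scaling, 67 (42 and 25) with a pseudocount of 1, and 22 (17 and 5) with the culture number as a replicate block. With array medians subtracted 127 were called (100 and 27). With 1 culture left out the count ran from 68 to 154, and it was 75, 76 and 68 without IFN-gamma culture 1, 2 and 3. The cause of these shifts was not tested. The median log2 fold change of all probe sets was 0.10 with no scaling, and 8 of 15 members lay above it, against -0.02 and 9 of 15 as reported. Over all probe sets, the deviations of same-numbered cultures from their group means had r = -0.03, 0.00 and -0.01 for numbers 1, 2 and 3. Many signals lie near the floor, so these r cannot tell whether same-numbered cultures were prepared together. Low signal limits every value here, since most member signals were under the pseudocount.

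The sign of the log2 fold change differed from the reported one in 22 of the 291 values, none larger than 0.229, and in 63 of 1084 values of 55 other probe sets of the genes described, cell type markers and genes of like pattern left out. None of these values passed the test before or after the change of sign. For Idi1 by AF003835_at it was -0.073 with array 1b alone and -0.23 with the replicate block, and -0.12 to 0.27 with 1 culture left out. With 1 culture left out Idi1 by rc_AI045395_at had -0.055 to 0.57 and Fdft1 by M95591_at -0.013 to 0.15. Fdft1 by rc_H33426_at had -0.0082 with the trimmed mean, -0.011 with the replicate block and -0.013 to 0.18 with 1 culture left out. Cyp51 by rc_AI230255_at had 0.014 with no scaling, 0.038 with array 1a alone, 0.0085 with all arrays, 0.060 with the replicate block and -0.073 to 0.089 with 1 culture left out. Cyp51 by U17697_s_at had 0.027 with no scaling, 0.093 with array 1c alone and -0.24 to 0.18 with 1 culture left out.

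With the trimmed mean, Mvk, Mvd, Lss, Nsdhl and Ebp had -0.076, -0.076, -0.077, -0.066 and -0.044. With array medians subtracted Mvd, Lss, Ebp and Lipa had -0.061, -0.030, -0.0054 and 0.21, and Lipa had 0.33 with no scaling. With a pseudocount of 64 Mvk, Lss and Ebp had -0.012, -0.0064 and -0.013. With array 1a alone Mvk, Hsd17b7 and Dhcr7 had -0.070, 0.13 and -0.11. With array 1b alone Nsdhl had -0.19, and with array 1c alone Mvd, Lss and Ebp had -0.14, -0.13 and -0.059. With the replicate block Mvk, Hsd17b7, Dhcr7 and Vldlr had -0.12, 0.20, -0.053 and 0.070. With 1 culture left out the ranges were -0.050 to 0.24 for Mvk, -0.24 to 0.25 for Mvd, -0.22 to 0.14 for Lss, -0.13 to 0.20 for Nsdhl, -0.20 to 0.10 for Hsd17b7, -0.28 to 0.16 for Ebp, -0.15 to 0.38 for Dhcr7 and -0.31 to 0.064 for Vldlr. Me1 by rc_AI008020_at had -0.0011 with the trimmed mean, -0.16 with the replicate block and -0.12 to 0.27 with 1 culture left out. Fntb by rc_AI230914_at had 0.12 with no scaling, 0.19 with array 1c alone and -0.35 to 0.098 with 1 culture left out. Acat2 by rc_AA859980_at had -0.0064 with array 1c alone, and Lipa by rc_AA874784_s_at -0.25 with the replicate block. With 1 culture left out Lipa by rc_AA874784_s_at had -0.11 to 0.18, Lipa by S81497_s_at -0.22 to 0.52 and Lss by E12275cds_s_at -0.069 to 0.0077. Calls were lost in 36 of the 1084 values and gained in 4. With the replicate block Scarb1 by AF071495_s_at had -2.28 and was not called (limma adjusted p = 0.136).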
